A study of Homo sapiens with 6 samples.

Results

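Kidney organoids that carry PKHD1-/- were compared with organoids that carry PKHD1+/-, both under flow, on 1 array each. These are 2 of the 6 arrays of the study, and they were chosen by their labels alone. The organoids, which hold nephron-like and stromal cells, were grown from the established human embryonic stem cell line H9. Those labelled PKHD1-/- come from 1 mutant clone, C51, and those labelled PKHD1+/- from another, C9, so genotype cannot be told apart from clone. No unedited line is among these 6 arrays, and the PKHD1+/- organoids carry a mutant copy too. Both flow groups were laid on a gelatin and fibrin matrix at day 14, received medium at 4.27 ml/min from day 15 and were harvested at day 35. The other 4 arrays, which serve here only for their values, hold the same clones in static culture on the matrix and with 20 µM forskolin. With 1 array a side there is no replicate error and no test, and each difference below compares these 2 arrays.

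Fibrocystin, the product of PKHD1, sits in the membrane of cilia on tubule and duct epithelia, and its loss causes autosomal recessive polycystic kidney disease. Tubule cells sense fluid flow through cilia, matrix contacts and the actin cytoskeleton. Genes commonly read out after such stimuli are the immediate early factors of the FOS and JUN families, contractile and matrix genes under the control of SRF, TGF-beta and YAP, and genes of oxygen and nutrient supply, many of which answer to hypoxia-inducible factor.

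Values are normalized log2 intensities, so that a difference of 1 is 2-fold, and every difference is PKHD1-/- minus PKHD1+/-. A gene was counted when the brighter of the 2 arrays lay above background, and was called higher or lower when it differed by 1 or more. Above the blank spots, the median spot of PKHD1-/- flow reached 39.7 intensity units and that of PKHD1+/- flow 58.3, and 85.3% and 94.7% of probes lay above background. The scanner marked 3 spots as not good on the PKHD1-/- flow array and 136 on the PKHD1+/- flow array. Within an array, the 24 spots of a positive control had an SD of 0.12 and 0.15 (log2, for its 2 kinds) in PKHD1-/- flow and 0.14 and 0.15 in PKHD1+/- flow. Between the arrays, before normalization, the controls differed in opposite directions. The median spot of the first kind was 39060 in PKHD1-/- flow and 31120 in PKHD1+/- flow, and that of the second 11310 and 26190. The cause was not tested. In 1857 genes read by 2 probes above background on both arrays, the probes' differences lay a median of 0.15 apart, and 5% of such genes lay over 0.68 apart. These spreads cover spots and probes only and leave out variation between cultures.

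Across genes, the PKHD1-/- flow array correlated at 0.977 with PKHD1+/- static and at 0.971 with PKHD1-/- static. The PKHD1+/- flow array correlated at 0.981 with PKHD1-/- static and at 0.974 with PKHD1+/- static. Each flow array was thus closer to the static array of the other genotype than to that of its own. The 2 flow arrays correlated at 0.978 with each other, and the 2 static arrays at 0.983. PKHD1 itself, read by 2 probes, was 7.37 in PKHD1-/- flow and 7.40 in PKHD1+/- flow, and 7.35 and 7.49 in PKHD1-/- and PKHD1+/- static. Where the probes lie relative to the mutation is not known here, so these levels check no label. The arrays are used here as labelled. An exchange of labels within the flow pair would turn the sign of every flow difference below. An exchange within the static pair would turn the sign of every static difference, and neither was tested.

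Markers of kidney cell types were above background to different extents. All 19 podocyte markers measured and all 27 proximal tubule markers lay above it on both flow arrays, as did 22 of 27 markers of distal tubule and collecting duct. The other 5, among them UMOD, the uromodulin gene of the thick ascending limb, and RET, the receptor of the ureteric bud, lay under the limit in PKHD1-/- flow. The nephrin gene NPHS1 had a spot median of 99.5 in PKHD1-/- flow and 108 in PKHD1+/- flow, and PODXL, the podocyte surface sialomucin, 75.2 and 68.2. LRP2, the endocytic receptor megalin of proximal tubules, had 143 and 182. The background limits were 48.4 and 34.1. Since most probes pass these limits, lying above them says little about a cell type. In bulk organoids, fewer cells of a type and less RNA per cell cannot be told apart.

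Of 16282 genes counted, 45 were higher in PKHD1-/- flow (0.276%) and 125 were lower (0.768%). The median difference over all of them was 0.01, with 8496 positive and 7780 negative. Of 39 gene lists, 16 had no member past 1 and the list medians ran from -0.42 to 0.52. Of these 16, the lists for cell cycle (37 genes), cholesterol synthesis (20), chemokines and cytokines (30), interferon (27), the WNT pathway (43), chloride and fluid secretion (23), nephron progenitors (19), epithelium (24), cartilage and bone (24) and pluripotent cells (11) had medians between -0.11 and -0.01. The largest differences were negative: 17 genes were lower by 2 or more and 3 were higher by as much. All of these genes lay above background on both arrays. For 4 further genes only PKHD1-/- flow lay above background and for 1303 only PKHD1+/- flow, and the largest bound on their fold was at least 1.28-fold. Scaling to the 75th percentile gave 70 higher and 119 lower, so that 63.0% of the genes past 1 were lower, against 73.5% in the counts above. The authors' value table, which adds no offset to dim signals, gave 287 higher and 1826 lower, or 86.4% lower, around a median of -0.26.

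**Figure D1:**
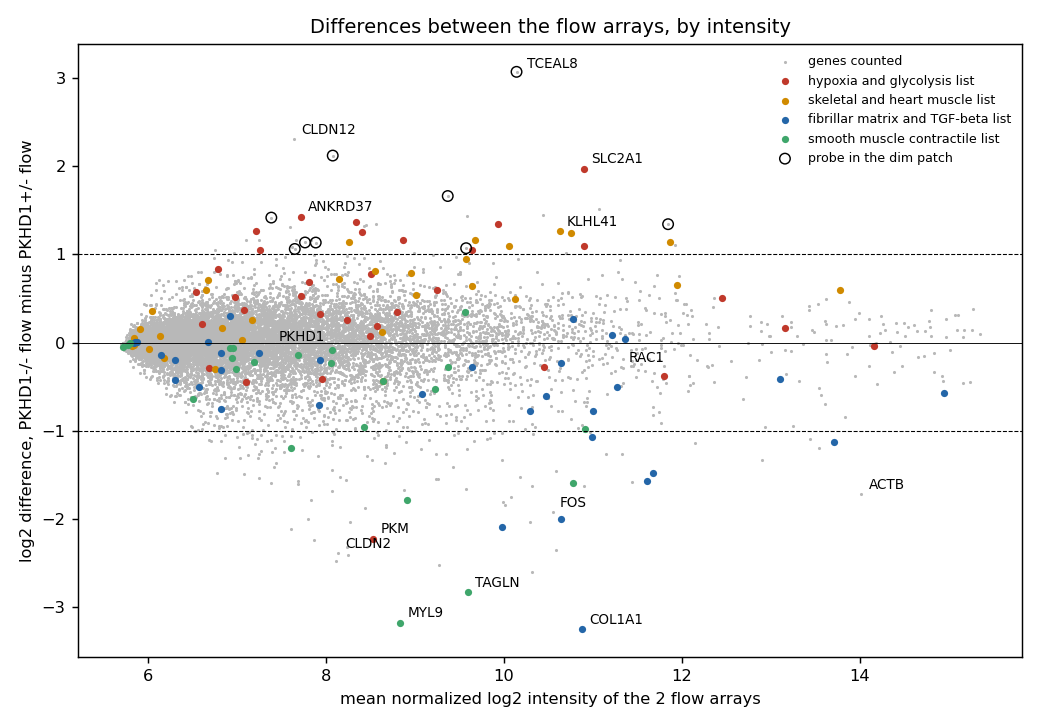
Each point is 1 of 16282 genes, plotted by its mean normalized log2 intensity on the 2 flow arrays and by its log2 difference, PKHD1-/- flow minus PKHD1+/- flow, with dashed lines at -1 and 1. Hypoxia and muscle genes lie mostly above 0 and matrix and contractile genes below it, COL1A1 lowest at -3.25, and open circles mark genes with a probe in the dim patch of the PKHD1+/- flow array, TCEAL8 highest at 3.07.

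Several of the highest values share a place on the glass. In block 2 of the PKHD1+/- flow array, within columns 73 to 79 and rows 4 to 11, 4 spots were marked as not good. Of the 11 probes there with a mean level of 7.5 or more, 10 were higher in PKHD1-/- flow and 9 by 1 or more, with a median difference of 1.42. The same probes had a median of 0.03 in static culture. They carry 9 of the 45 genes called higher and none of those called lower, and leaving the patch out gave 36 higher and 125 lower. TCEAL8, a gene of the TCEAL family of transcription elongation factors and the highest value of all, was 11.68 in PKHD1-/- flow and 8.61 in PKHD1+/- flow, and 11.57 and 11.60 in PKHD1-/- and PKHD1+/- static. The PKHD1+/- flow array alone was dim. The same was so of MRPL11, a mitochondrial ribosomal protein gene, at 9.13 in PKHD1-/- flow and 7.01 in PKHD1+/- flow, against 9.20 and 8.97 in PKHD1-/- and PKHD1+/- static. OSTC, a subunit of the oligosaccharyltransferase, had 1 probe in the patch that differed by 2.92 and 1 elsewhere that differed by 0.41. The probe of COQ5, a coenzyme Q enzyme, differed by 1.76 in the patch, and that of ARFGAP3, a Golgi trafficking protein, by 1.57. The copper chaperone CCS (1.42), the respiratory subunit UQCRH (1.34), the G protein subunit GNG10 (1.13) and the secretory pathway gene TFG (1.07) complete the group. CLDN12 and OSBPL9, described below, lay in other blocks within 2 rows and columns of a spot marked as not good. Of the genes called lower, 12 had a probe so close to a marked spot, among them TAGLN, BAT1 and MYH9. No gene of the hypoxia list past 1 lay in the patch or so close to a marked spot.

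**Figure D2:**
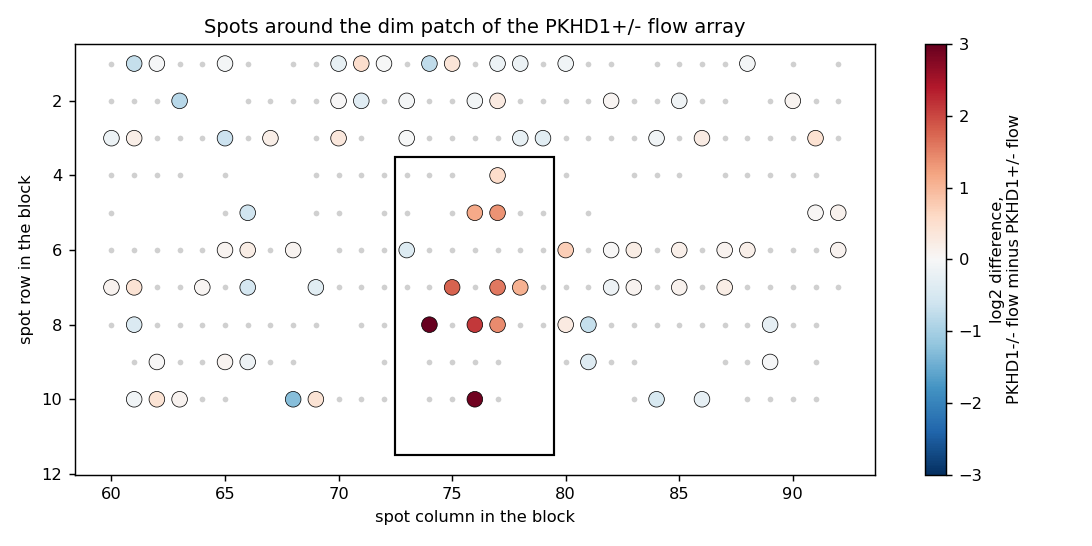
Spots in block 2 by column and row, with bright probes (mean level 7.5 or more) coloured by their log2 difference, PKHD1-/- flow minus PKHD1+/- flow, and dimmer probes as small grey dots. Inside the frame 10 of 11 bright probes are above 0, with a median of 1.42, while those around it lie on both sides.

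Of the gene lists, hypoxia and glycolysis had the most members on the higher side. Of 33 members counted, 10 were higher by 1 or more, 1 was lower and 26 had a positive value, with a median of 0.52. Over all genes the shares were 0.276% higher and 0.768% lower. The median was 0.65 with 75th percentile scaling and 0.63 in the value table, where the median of all genes was 0.10 and -0.26. SLC2A1, the glucose transporter of most cells, was 11.89 in PKHD1-/- flow and 9.91 in PKHD1+/- flow, a difference of 1.97. Its spot medians were 4827 and 1263. In static culture it was 11.13 in PKHD1-/- and 11.30 in PKHD1+/-, so the PKHD1+/- flow array stood lowest. ANKRD37, a target of hypoxia-inducible factor, was 8.43 in PKHD1-/- flow and 7.004 in PKHD1+/- flow, and 7.41 and 7.43 in PKHD1-/- and PKHD1+/- static. Here the flow arrays stood on either side of the static ones. KDM3A, a histone demethylase induced by low oxygen, was 10.61 in PKHD1-/- flow and 9.26 in PKHD1+/- flow, and 9.47 and 9.81 in PKHD1-/- and PKHD1+/- static. Among the flow and static arrays, it was PKHD1-/- flow that stood apart. With forskolin KDM3A was close to that level, at 10.45 in PKHD1-/- and 10.37 in PKHD1+/-. ADM, the gene of the vasodilator peptide adrenomedullin, was 7.84 in PKHD1-/- flow and 6.58 in PKHD1+/- flow, and 7.27 and 7.39 in PKHD1-/- and PKHD1+/- static.

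The other members past 1 act in glycolysis, collagen folding and mitochondrial turnover. The aldolase ALDOC differed by 1.37, with its 2 probes at 1.46 and 1.28, and the enolase ENO2 by 1.17. PFKFB4, which makes the activator of phosphofructokinase, differed by 1.05. The collagen prolyl hydroxylase P4HA1 stood at 10.17 in PKHD1-/- flow and 9.12 in PKHD1+/- flow, BNIP3, a mediator of mitophagy, at 11.45 and 10.36, and NDRG1, a stress-induced gene, at 9.03 and 7.78. Just short of 1 were the hexokinase HK2 (0.83), the phosphofructokinase PFKP (0.78) and the transporter SLC2A3 (0.69). Smaller values belonged to PDK1, which holds pyruvate back from mitochondria (0.58), the oxygen sensor EGLN3 (0.52), the angiogenic factor VEGFA (0.35) and LDHA, the lactate dehydrogenase (0.16). Not every glycolytic gene shared the sign. GAPDH was at -0.27, the triosephosphate isomerase TPI1 at -0.37 and HIF1A, the factor itself, at -0.41. PKM, the last enzyme of glycolysis, was 7.42 in PKHD1-/- flow and 9.64 in PKHD1+/- flow. Its difference of -2.23 was among the 15 lowest of the flow pair.

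In static culture the hypoxia list had a median of 0.07 with 18 of 33 members positive, and with forskolin -0.07 with 14 positive. Of all genes counted, 48.97% were positive in static culture and 49.85% with forskolin. Of the 4 arrays on the matrix, PKHD1-/- flow was the highest in 18 of the 33 members (54.5%, against 25.9% of all genes). PKHD1+/- flow was the lowest in 23 of them, against 28.6% of all genes. The summed value of the list was 29176 in PKHD1-/- flow and 19153 in PKHD1+/- flow, and 30517 and 31318 in PKHD1-/- and PKHD1+/- static. With forskolin it was 38579 in PKHD1-/- and 51152 in PKHD1+/-. By that sum the PKHD1+/- flow array was the lowest. Its sum over all genes counted was the lowest too, at 2229900, against 2523700 in PKHD1-/- flow. The static sums over all genes were 2424500 in PKHD1-/- and 2695500 in PKHD1+/-.

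The promoters of the members past 1 were read for the core of the hypoxia response element, ACGTG, on either strand, in the 250 bases before the start of the gene (RefSeq, GRCh38.p14). RefSeq windows were found for 9 of the 10, and 5 of these hold the motif, against 18.7% of 27305 promoters. The 5 are shown 5′ to 3′ on the strand of the gene, in lower case, with the motif or its complement in capitals, so that the place and number of matches can be seen.
ANKRD37: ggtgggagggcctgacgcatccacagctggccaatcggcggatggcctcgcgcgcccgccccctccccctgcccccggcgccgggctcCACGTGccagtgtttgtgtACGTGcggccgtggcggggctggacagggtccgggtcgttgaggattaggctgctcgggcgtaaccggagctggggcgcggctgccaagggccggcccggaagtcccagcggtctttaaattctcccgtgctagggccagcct
ALDOC: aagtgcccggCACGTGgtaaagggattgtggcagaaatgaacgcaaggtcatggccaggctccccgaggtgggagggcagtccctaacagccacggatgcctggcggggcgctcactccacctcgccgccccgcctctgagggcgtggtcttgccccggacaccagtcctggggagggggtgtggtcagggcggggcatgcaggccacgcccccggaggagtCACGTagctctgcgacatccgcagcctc
ENO2: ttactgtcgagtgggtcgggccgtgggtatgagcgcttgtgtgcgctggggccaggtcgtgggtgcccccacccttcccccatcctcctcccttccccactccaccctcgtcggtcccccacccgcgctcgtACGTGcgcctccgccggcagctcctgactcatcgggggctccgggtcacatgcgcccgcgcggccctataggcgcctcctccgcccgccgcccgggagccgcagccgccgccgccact
BNIP3: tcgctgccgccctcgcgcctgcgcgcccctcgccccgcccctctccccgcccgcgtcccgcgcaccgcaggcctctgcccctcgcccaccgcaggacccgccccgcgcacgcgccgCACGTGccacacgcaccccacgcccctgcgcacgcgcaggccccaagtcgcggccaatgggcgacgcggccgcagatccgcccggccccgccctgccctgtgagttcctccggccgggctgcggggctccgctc
P4HA1: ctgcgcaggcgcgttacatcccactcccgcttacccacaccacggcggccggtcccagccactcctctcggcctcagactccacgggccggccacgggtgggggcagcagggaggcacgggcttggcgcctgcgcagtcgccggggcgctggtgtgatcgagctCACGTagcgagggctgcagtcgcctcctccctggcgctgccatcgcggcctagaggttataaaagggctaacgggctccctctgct
These windows are chr4:185396591-185396840 on the plus strand, chr17:28576896-28577145 on the minus strand, chr12:6914330-6914579 on the plus strand, chr10:131981924-131982173 on the minus strand and chr10:73096867-73097116 on the minus strand. In ANKRD37, ALDOC and BNIP3 a match on each strand overlaps in the palindrome CACGTG. Of all 29 list members with a window, 12 hold the motif (41.4%). It is held by 12 of the 39 higher genes with a window (30.8%), these members among them. Of the 97 lower genes with a window, 22 hold it (22.7%). No match was found in the windows of SLC2A1, KDM3A, ADM and PFKFB4, which says only that these letters are absent there. A match is a description and no measured binding.

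Genes of amino acid and endoplasmic reticulum stress overlapped with this pattern in part. DDIT4, an inhibitor of mTORC1 that low oxygen and stress induce, was 9.11 in PKHD1-/- flow and 7.77 in PKHD1+/- flow. TRIB3, a pseudokinase target of ATF4, was 7.68 in PKHD1-/- flow and 6.51 in PKHD1+/- flow. STC2, a secreted stress protein, stood at 0.95 and DDIT3, the factor CHOP, at 0.77. CALR, the chaperone calreticulin, was lower, at 6.43 in PKHD1-/- flow and 7.62 in PKHD1+/- flow, and HSPA5, the main chaperone of this compartment, stood at -0.07. Of 34 members counted, 2 were higher and 1 was lower (against 0.276% and 0.768% of all genes), and the median was 0.10.

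Sarcomere and other markers of skeletal and heart muscle, which kidney does not hold as cell types, made up the next group of higher genes. Of 32 counted, 6 were higher (against 0.276% of all genes), none was lower and 25 were positive (against 8496 of 16282). The median was 0.52. This median was 0.69 with 75th percentile scaling and 0.77 in the value table, above that of the hypoxia list in both. KLHL41, which stabilizes the sarcomere, was 11.26 in PKHD1-/- flow and 10.00 in PKHD1+/- flow. TNNC2, the calcium sensor of fast muscle, was 11.38 in PKHD1-/- flow and 10.13 in PKHD1+/- flow, and the myosin light chain MYL1 12.44 and 11.30. The skeletal actin ACTA1 differed by 1.17 (2 probes, 1.22 and 1.11), the perinatal myosin MYH8 by 1.14 and the slow troponin TNNT1 by 1.09. CASQ2, the calcium buffer of the cardiac sarcoplasmic reticulum, which is not in the list, differed by 1.33. The probes of TNNT1 and CASQ2 lay within 2 rows and columns of a spot marked as not good, and their part in the values was not tested. The muscle fate factor MYOD1 stood at 0.78, and CKM, MYH2 and MYH7, enzymes and myosins of mature fibres, between 0.03 and 0.07. MYH2 and MYH7 were dim, with spot medians of 50.6 and 67.0 in PKHD1-/- flow and 39.1 and 59.8 in PKHD1+/- flow. The offset shrinks the differences of such dim genes. DES, an intermediate filament gene that is also in the contractile list, was the lowest member at -0.43, and 7 members were negative. The static pair differed the same way, with 27 of 32 positive and a median of 0.62, and KLHL41 at 2.25 and MYL1 at 2.10. In the forskolin pair 20 of 32 were positive and the median was 0.11, with ACTA1 at 0.06 and MYH8 at -0.34. The summed value of the list was 22944 in PKHD1-/- flow and 11231 in PKHD1+/- flow, 4641 and 1183 in PKHD1-/- and PKHD1+/- static, and 95277 and 76458 with forskolin. The forskolin arrays carried the most.

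Genes of the respiratory chain and of cytosolic ribosomes held small positive values in PKHD1-/- flow. Of 41 respiratory chain subunits 33 were positive (against 8496 of all 16282 genes) and none was past 1. Their median was 0.20, and -0.21 in static culture. The oxidase subunit COX7A2 was highest, at 12.35 in PKHD1-/- flow and 11.59 in PKHD1+/- flow. Of 46 ribosomal protein genes 39 were positive and none was past 1, with a median of 0.18. The ribosomal median was 0.68 with 75th percentile scaling and 0.60 in the value table. The cause of this shift was not tested.

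Among fibrillar matrix and TGF-beta genes was the lowest value of all, that of COL1A1. Of 34 counted, 7 were lower by 1 or more (against 0.768% of all genes) and none was higher. In all 27 were negative (against 7780 of 16282), with a median of -0.42. The median was -0.21 with 75th percentile scaling and -0.59 in the value table, and the 75th percentile setting put the contractile list described next lower, at -0.35. COL1A1, a chain of collagen I, was 9.26 in PKHD1-/- flow and 12.50 in PKHD1+/- flow, and its spot medians were 767 and 6848. In static culture the order was turned, with 12.73 in PKHD1-/- and 10.47 in PKHD1+/-, and with forskolin 11.05 in PKHD1-/- and 11.10 in PKHD1+/-. COL1A2, the partner chain of COL1A1 in the same triple helix, differed by -0.42, and COL3A1 by -0.23. FN1, fibronectin, was 10.83 in PKHD1-/- flow and 12.40 in PKHD1+/- flow, against 11.65 and 10.94 in PKHD1-/- and PKHD1+/- static. CCN2, a matricellular target of TGF-beta and YAP, was 9.64 in PKHD1-/- flow and 11.64 in PKHD1+/- flow, and the gelatinase MMP2 8.93 and 11.02. The basement membrane collagens COL4A1 and COL4A2 differed by -1.48 and -1.02. SPARC, a collagen-binding protein, differed by -1.13 and the proteoglycan BGN by -1.07. TGFB1, the ligand, stood at -0.42 and its receptors TGFBR1 and TGFBR2 at 0.00 and 0.30. DCN, LUM and POSTN, matrix genes of stromal cells, stood between 0.04 and 0.27. The list of stromal markers as a whole had 1 lower member of 24, COL1A1, and a median of -0.14. In it 11 members were positive and 13 negative, and the highest were ASPN at 0.95 and OGN at 0.93.

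Most contractile genes had negative values. Of 23 counted, 5 were lower (against 0.768% of all genes), none was higher and 22 were negative (against 7780 of 16282). The median was -0.28. MYL9, the regulatory light chain of smooth muscle myosin, was 7.24 in PKHD1-/- flow and 10.42 in PKHD1+/- flow. TAGLN, the actin-binding protein transgelin, was 8.18 in PKHD1-/- flow and 11.01 in PKHD1+/- flow, and its 2 probes differed by -3.09 and -2.57, the first of them within 2 rows and columns of a spot marked as not good. The smooth muscle actins ACTG2 and ACTA2 differed by -1.79 and -1.59. For MYL9 the static arrays read 10.93 in PKHD1-/- and 9.49 in PKHD1+/-, and for ACTA2 12.20 and 12.45. PKHD1-/- flow was the lowest of the 4 matrix arrays in 19 of the 23 members (82.6%, against 27.1% of all genes). GUCY1A1, which forms part of the nitric oxide receptor, was 7.01 in PKHD1-/- flow and 8.21 in PKHD1+/- flow. It differed by -1.003 in static culture and by -1.004 with forskolin too. MYH11, SMTN and MYLK, further smooth muscle genes, stood between -0.07 and -0.04, and TPM1, a tropomyosin, at 0.34.

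ACTG2 is the 1 contractile member past 1 whose RefSeq window holds a CArG box, the binding site of SRF. Only the strict form CCWWWWWWGG, with W as A or T, was read. It is held by 1.14% of all promoters of this length, and by 3 of the 18 list members with a window. Its 250 bases before the start are shown with the boxes in capitals, 5′ to 3′ on the plus strand (chr2:73892758-73893007, GRCh38.p14).
ACTG2: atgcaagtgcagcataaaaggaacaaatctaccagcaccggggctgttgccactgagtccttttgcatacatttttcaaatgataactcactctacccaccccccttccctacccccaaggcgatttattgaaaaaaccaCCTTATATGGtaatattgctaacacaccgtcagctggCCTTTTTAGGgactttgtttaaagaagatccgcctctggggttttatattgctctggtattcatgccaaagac
SRF itself stood at -0.14. RefSeq windows were matched for 3 of the 5 contractile members past 1. Those of ACTA2 and GUCY1A1 held no match, which says only that the strict form is absent there.

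**Figure D3:**
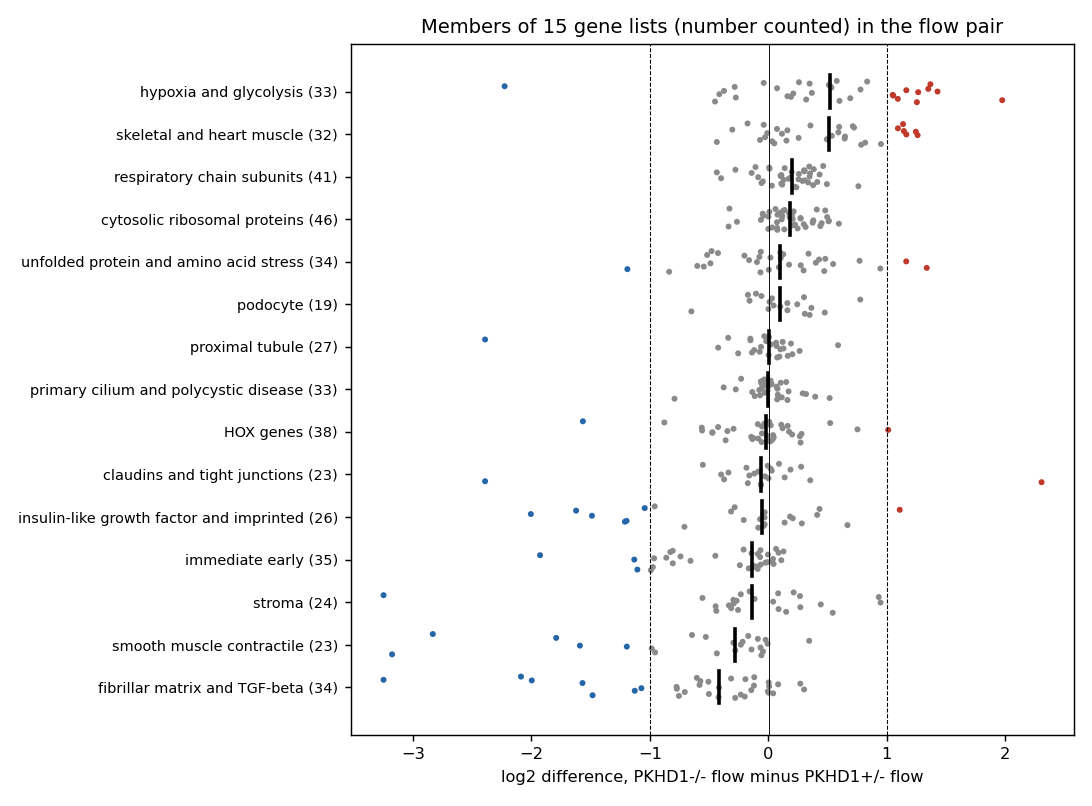
Each point is a member of 1 of 15 gene lists, plotted by its log2 difference, PKHD1-/- flow minus PKHD1+/- flow, with red points at 1 or more and blue points at -1 or less. Black bars mark list medians, from 0.52 for hypoxia and glycolysis at the top to -0.42 for fibrillar matrix and TGF-beta at the bottom, and points are spread vertically only to keep them apart.

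Further genes of the actin cytoskeleton were also lower. PFN1, profilin, which feeds actin growth, was 9.02 in PKHD1-/- flow and 11.62 in PKHD1+/- flow. The cytoplasmic actin ACTB was 13.16 in PKHD1-/- flow and 14.88 in PKHD1+/- flow, and the severing protein cofilin CFL1 11.58 and 12.71. The tropomyosin TPM4, the spectrin SPTAN1 and the nonmuscle myosin MYH9 differed by -1.69, -2.03 and -1.12. RHOB, a small GTPase of stress fibres and endosomes, was 6.75 in PKHD1-/- flow and 8.98 in PKHD1+/- flow, and its 2 probes differed by -3.16 and -1.31. RAC1, a GTPase of cell protrusions that is named from knowledge of published work on such organoids, was 11.18 in PKHD1-/- flow and 11.46 in PKHD1+/- flow, a difference of -0.28. It was 11.41 in PKHD1-/- and 11.94 in PKHD1+/- static. RHOA and CDC42 stood at -0.06 and -0.15.

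FOS, an immediate early component of AP-1, was 9.59 in PKHD1-/- flow and 11.51 in PKHD1+/- flow, with spot medians of 975 and 3514. In static culture it was 10.43 in PKHD1-/- and 10.78 in PKHD1+/-, and with forskolin 6.95 and 7.29. The PKHD1+/- flow array held the highest FOS level of the 6. Among 35 immediate early genes counted, 3 were lower (against 0.768% of all genes) and none was higher. In all 28 were negative (against 7780 of 16282), with a median of -0.13. The others past 1 were CCN1, a matricellular serum response gene, at 8.33 in PKHD1-/- flow and 9.46 in PKHD1+/- flow, and JUND, a partner of FOS, at 6.13 and 7.24. Close to 1 were the growth arrest gene GADD45B (-0.99), the phosphatase DUSP1 (-0.97), the zinc finger factor EGR1 (-0.96) and the flow-induced factor KLF2 (-0.86). JUN stood at -0.45, FOSB at -0.21 and ATF3 at 0.09. Of the shear stress list none of 27 was past 1. Of 27 YAP targets CCN1 and CCN2 were, both lower (against 0.768% of all genes).

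Insulin-like growth factor genes lay on both sides. IGFBP4, which holds the factors back from their receptor, was 6.79 in PKHD1-/- flow and 8.80 in PKHD1+/- flow, against 9.01 and 7.46 in PKHD1-/- and PKHD1+/- static. IGF2, the imprinted fetal growth factor, was 10.09 in PKHD1-/- flow and 11.71 in PKHD1+/- flow, with 2 probes at -1.59 and -1.66. The binding proteins IGFBP5 and IGFBP7 differed by -1.21 and -1.20, and the mRNA-binding proteins IGF2BP2 and IGF2BP1 by -1.49 and -1.04. DLK1, an imprinted inhibitor of differentiation, was higher, at 12.48 in PKHD1-/- flow and 11.37 in PKHD1+/- flow, with 10.93 and 10.92 in PKHD1-/- and PKHD1+/- static. In all, 6 of 26 counted were lower and 1 was higher, against 0.768% and 0.276% of all genes. H19, which is imprinted with IGF2, stood at -0.03.

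Epithelial and nephron lists had medians near 0, with single genes apart. The shares past 1 over all genes, to set beside the counts here, were 0.276% higher and 0.768% lower. CLDN2, the claudin of cation and water pores in the proximal tubule, was 6.93 in PKHD1-/- flow and 9.32 in PKHD1+/- flow, and 6.50 and 7.29 in PKHD1-/- and PKHD1+/- static. The PKHD1+/- flow array held the highest level. It was the 1 member past 1 of 27 proximal tubule markers, whose median was 0.01, with LRP2 at -0.15 and the amino acid transporter SLC7A9 at 0.59. CLDN12, a claudin of calcium permeability, was 8.79 in PKHD1-/- flow and 6.49 in PKHD1+/- flow, with 8.23 and 8.70 in PKHD1-/- and PKHD1+/- static. The PKHD1+/- flow array alone was dim for it, beside a marked spot as stated above. Podocyte markers had none of 19 past 1 and a median of 0.10, with PTPRO, a phosphatase of the filtration barrier, highest at 0.78. CALB1, the calcium buffer of the distal tubule, was the 1 higher member of its list of 27, at 7.47 in PKHD1-/- flow and 6.46 in PKHD1+/- flow. None of 33 cilium and polycystic disease genes was past 1, with a median of -0.01. The glucosidase subunit GANAB was lowest there, at -0.79, and PKD1 and PKD2 stood at 0.08 and -0.38. PRKCSH, the partner of GANAB and a gene of polycystic liver disease, which the list does not hold, was 6.55 in PKHD1-/- flow and 8.66 in PKHD1+/- flow.

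Developmental genes contributed single values. Here too, the counts past 1 stand beside 0.276% higher and 0.768% lower over all genes. MSX1, a homeobox target of BMP signalling, was 10.30 in PKHD1-/- flow and 8.87 in PKHD1+/- flow, with its 2 probes at 1.97 and 0.90, and 7.98 and 8.03 in PKHD1-/- and PKHD1+/- static. HOXA9, a posterior HOX gene, was higher at 1.01 and HOXC10 lower at -1.57, among 38 counted with a median of -0.02. The retinoic acid carriers CRABP1 and CRABP2 were 9.40 and 7.85 in PKHD1-/- flow, against 11.76 and 9.18 in PKHD1+/- flow. In static culture they were 10.33 and 9.56 in PKHD1-/-, against 8.67 and 8.21 in PKHD1+/-. ITM2A, a membrane protein of differentiating cartilage and muscle, was 11.16 in PKHD1-/- flow and 9.72 in PKHD1+/- flow. HSPB3, a small heat shock protein of muscle, was the 1 member past 1 of 25 heat shock genes, at 1.09. RAMP2, the receptor partner for adrenomedullin on endothelium, was the 1 endothelial marker past 1 of 26, at -1.04. CD74, the class II invariant chain, was the 1 leukocyte marker past 1 of 18, at -1.11.

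Among the 15 lowest genes several belong to no list. BSG, the surface protein basigin, was 8.002 in PKHD1-/- flow and 10.53 in PKHD1+/- flow. NNMT, which methylates nicotinamide, was 6.87 in PKHD1-/- flow and 9.35 in PKHD1+/- flow. BANF1, a chromatin protein of the nuclear envelope, was 7.04 in PKHD1-/- flow and 9.45 in PKHD1+/- flow, and YWHAE, a 14-3-3 adaptor, 7.07 and 9.39. BAT1, an RNA helicase whose platform symbol was kept, differed by -2.03, with 2 probes at -2.62 and -1.45, the first of them near a marked spot. Among the 15 highest, the lipid-binding gene OSBPL9 was 9.24 in PKHD1-/- flow and 7.89 in PKHD1+/- flow. Of the metallothioneins, none of 15 was past 1 and the median was -0.14.

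**Figure D4:**
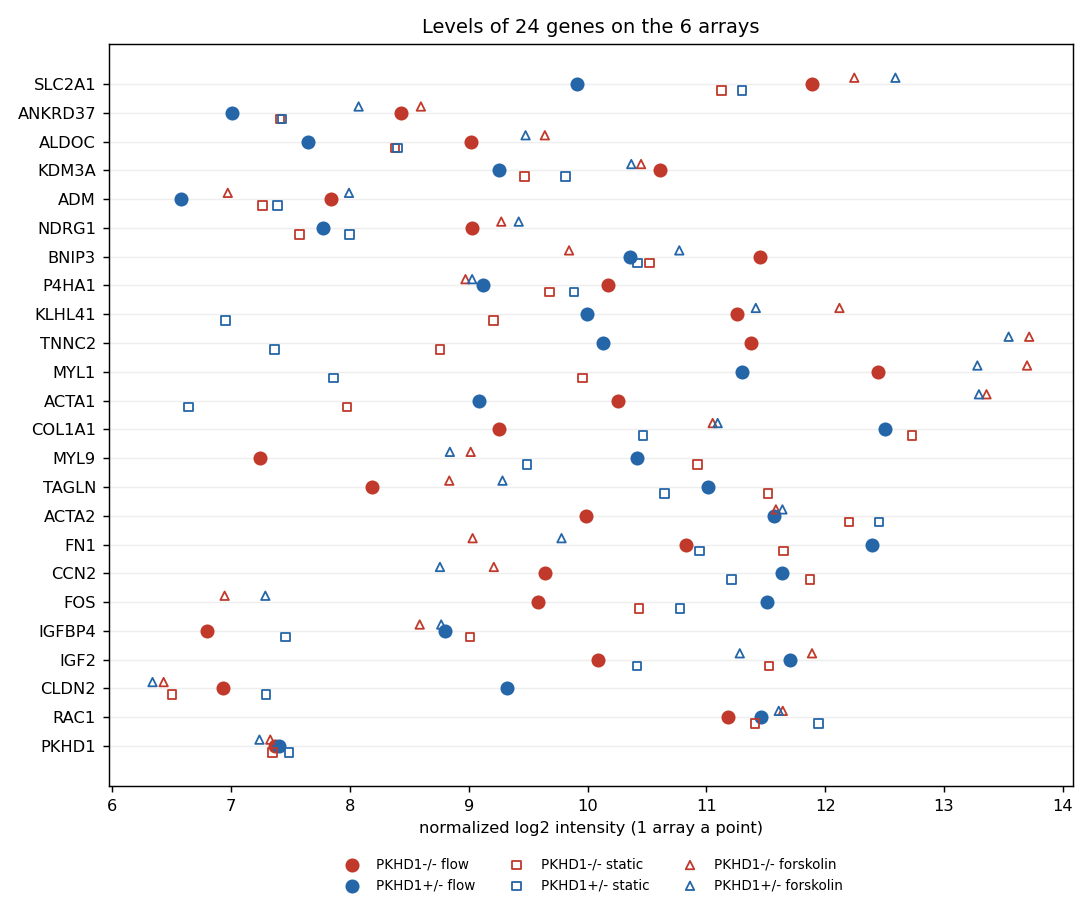
Normalized log2 intensities of 24 genes on all 6 arrays, 1 point an array, with filled circles for flow, squares for static culture and triangles for forskolin, red for PKHD1-/- and blue for PKHD1+/-. In the 8 hypoxia genes at the top the filled red point lies right of the filled blue one, in COL1A1, MYL9 and TAGLN it lies left of the other 5 points, and for PKHD1 the 6 points nearly coincide.

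The genotype difference under flow was set beside that in static culture, which uses other arrays. In static culture 70 of 15992 genes were higher in PKHD1-/- (0.438%) and 39 were lower (0.244%), and with forskolin 76 of 15912 were higher (0.478%) and 68 lower (0.427%). Of the 125 genes lower under flow, 103 had a positive value in static culture (82.4%, against 49.0% of all genes counted), with a median of 0.66. By 1 or more, 31 were higher there, which is 24.8% of the 125 and 44.3% of the 70, and 2 were lower, GUCY1A1 and DDC, the decarboxylase that makes dopamine. With forskolin, 70 of the 125 were positive, with a median of 0.05. PKHD1-/- flow was the lowest of the 4 matrix arrays in 108 of them (86.4%, against 27.1% of all genes) and PKHD1+/- flow the highest in 81 (64.8%, against 22.4%). In 101, PKHD1-/- flow and PKHD1+/- static both lay below PKHD1+/- flow and PKHD1-/- static (80.8%, against 20.8%). The choice of genes lower in PKHD1-/- flow than in PKHD1+/- flow raises these counts in advance. Across all genes the flow and static differences correlated at -0.35, as a description, and the flow and forskolin differences at -0.06.

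The 45 genes higher under flow did not share this. In static culture 27 of them were positive, with a median of 0.10. The 6 that were higher in both are ACTA1, KLHL41, MYL1, TNNC2 and TNNT1, all muscle genes, and TMSL8, a thymosin gene under its platform symbol, and none was lower by 1 or more. With forskolin 15 of the 45 were positive, with a median of -0.28. PKHD1-/- flow was the highest of the 4 matrix arrays in 39 (86.7%, against 25.9% of all genes), and PKHD1+/- flow the lowest in 28 (62.2%, against 28.6%), counts that the choice of these genes raises likewise. Without the patch and the spots near marked ones, 32 higher genes were left, 20 of them positive in static culture. The 5 largest negative gaps between the flow and static differences were those of COL1A1 (-5.51), MYL9 (-4.61), YWHAE (-4.37), BSG (-4.07) and CRABP1 (-4.01). The 5 largest positive ones were those of TCEAL8 (3.11), CLDN12 (2.78), AK3L1, an adenylate kinase under its platform symbol (2.20), SLC2A1 (2.15) and AFP, alpha-fetoprotein (2.05).

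**Figure D5:**
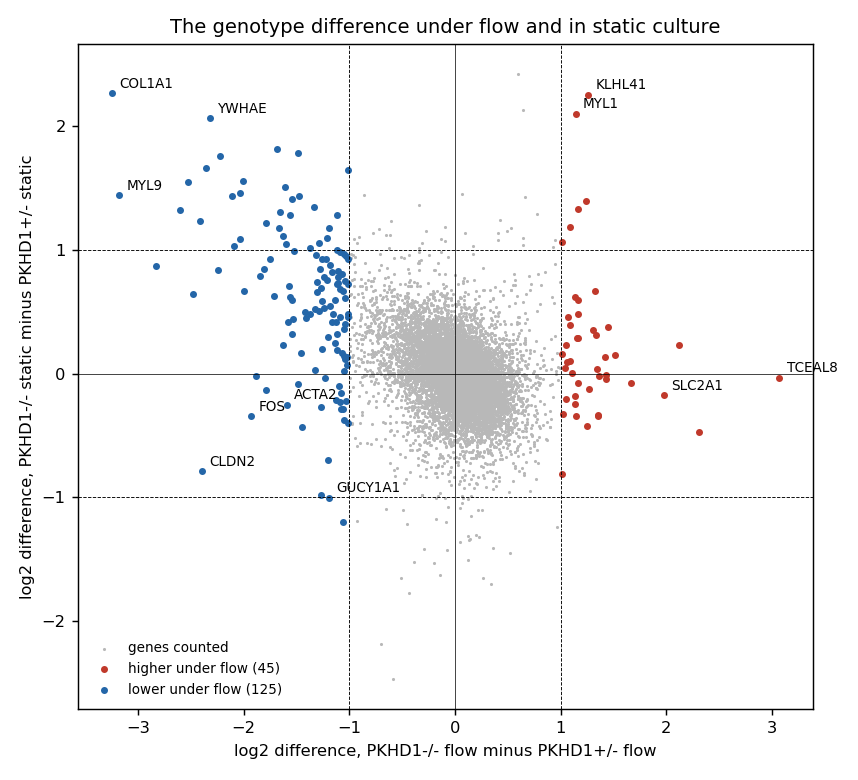
Log2 difference under flow (x axis) against the log2 difference in static culture (y axis), both PKHD1-/- minus PKHD1+/-, for 16282 genes, with dashed lines at -1 and 1. Of the 125 blue genes lower under flow 103 lie above 0 on the y axis, and the 6 red genes past 1 on both axes are 5 muscle genes and TMSL8.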

How the data were processed

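Total RNA was amplified, labelled with Cy5 and read on 1 array a group (3D-Gene Human 25k). Per the file headers, the deposited scanner files hold the median intensity of 27456 spots, linear and without background subtraction. The authors' value table, used as an alternative, holds an intensity per probe that lies on a straight line with the spot median of its array.

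Spot medians were corrected by normexp (offset 50), converted to log2 and quantile normalized over the 6 arrays (limma 3.58.1, R 4.3.3). The offset shrinks the differences of dim genes. The background limit was the trimmed mean of 2680 blank spots plus 2 SD. Probes that any scanner file marks as not good (205) were dropped. Averaging probes by gene left 17446 genes, from 20236 probes with 1 symbol. Symbols and promoters are from RefSeq (GRCh38.p14). The calculation was tested on simulated data. With 1 array a group no test was run, and the number of arrays limits the precision.

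Named are PKHD1, FOS and RAC1, the 15 highest and 15 lowest genes with every probe on 1 side, the 5 largest gaps to the static pair each way, and leading list members, without placeholder names. Others given beside them were chosen after their values were seen. Members and lists were chosen with earlier results of these data known. Of the 39 lists, 1 result is not reported here, and lists with few or no members past 1 are given in brief or through single genes.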

Additional observations from a re-analysis of the deposited data

Results flagged for a closer look

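For 18 named genes the PKHD1-/- array stood past 1 on one side of the PKHD1+/- array under flow and past 1 on the other side in static culture, so that every array of each pair moved the opposite way. Each pair has 1 array a side, and the difference between the pairs was not tested. In all 18 the flow difference was negative and the static difference positive. The gap is the flow difference minus the static difference, on the log2 scale.

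For COL1A1, the collagen gene, the flow difference was -3.25, the static difference 2.26 and the gap -5.51. MYL9, the myosin light chain, had -3.18 under flow and 1.44 in static culture, a gap of -4.61. The gap of YWHAE, the 14-3-3 adaptor, was -4.37, from -2.32 under flow and 2.06 in static culture. For BSG, basigin, the flow difference was -2.52, the static difference 1.54 and the gap -4.07. CRABP1, the retinoic acid carrier, had -2.35 under flow and 1.66 in static culture, a gap of -4.01. The gap of PKM, the pyruvate kinase, was -3.98, from -2.23 under flow and 1.76 in static culture. For PFN1, profilin, the flow difference was -2.60, the static difference 1.32 and the gap -3.92. BANF1, the nuclear envelope gene, had -2.41 under flow and 1.23 in static culture, a gap of -3.64. The gap of IGFBP4, a binding protein of insulin-like growth factors, was -3.56, from -2.004 under flow and 1.55 in static culture. For PRKCSH, the glucosidase subunit, the flow difference was -2.11, the static difference 1.44 and the gap -3.54. BAT1, the RNA helicase, had -2.03 under flow and 1.46 in static culture, a gap of -3.49. The gap of IGF2BP2, an mRNA-binding protein, was -3.27, from -1.49 under flow and 1.78 in static culture. For MMP2, the gelatinase, the flow difference was -2.09, the static difference 1.03 and the gap -3.12. HOXC10, a posterior HOX gene, had -1.57 under flow and 1.28 in static culture, a gap of -2.84. The gap of IGF2, the fetal growth factor, was -2.73, from -1.62 under flow and 1.11 in static culture. For CRABP2, the other retinoic acid carrier, the flow difference was -1.33, the static difference 1.35 and the gap -2.68. CALR, calreticulin, had -1.19 under flow and 1.17 in static culture, a gap of -2.36. The gap of IGFBP5, a further binding protein, was -2.31, from -1.21 under flow and 1.10 in static culture.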

How the results depend on the processing

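The counts of 45 higher and 125 lower genes stayed within 1.5 times with no background correction, with quantile normalization over the 2 flow or the 4 matrix arrays, with the brightest probe of each gene and over genes above background on both flow arrays or on all 6. They moved further with an offset of 10, to 128 higher and 282 lower, and in the authors' value table, to 287 and 1826. Scaling to the 75th percentile gave 70 higher, past 1.5 times, and 119 lower. At a threshold of 1.5-fold there were 280 and 509, and at 4-fold 3 and 17. The value table centred on its own median of -0.26 gave 499 higher and 1002 lower. Without the patch there were 36 and 125, and without spots near marked ones 36 and 118, 2 alternatives that were chosen after seeing the data. No named gene past 1 changed sign in these alternatives. Of the named genes, 21 moved to another side of 1 in the value table, 9 with an offset of 10 and 6 with 75th percentile scaling. The cause was not tested. Over the alternatives the hypoxia median ran from 0.52 to 0.65, that of muscle from 0.42 to 0.77, of ribosomal proteins from 0.17 to 0.68, of the respiratory chain from 0.195 to 0.43, of fibrillar matrix from -0.59 to -0.21, of contractile genes from -0.56 to -0.28 and of immediate early genes from -0.61 to -0.12. Medians near 0 could take either sign, as for nephron progenitors (-0.64 to 0.003).

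Leaving out a replicate is not possible with 1 array a side. No paired analysis was possible because each group holds a single array. Genes near background have no usable fold: the offset holds their differences near 0.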

Other observations

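Position in the genome was looked at after the lower genes were seen. Of the 123 lower genes with a chromosome in RefSeq, 17 lie on chromosome 19 (13.8%), among them C3, BSG, PRKCSH, TPM4 and KDELR1. Over all genes counted the share was 7.11%, and 1 of 44 higher genes lies there. No test was run on this.

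Single plasma protein genes differed between the flow arrays, on both sides of 0. C3, the central complement protein, read by 3 probes, was 7.496 in PKHD1-/- flow and 9.37 in PKHD1+/- flow, with 7.79 and 7.81 in PKHD1-/- and PKHD1+/- static. SERPINA1, alpha-1 antitrypsin, was 7.34 in PKHD1-/- flow and 8.79 in PKHD1+/- flow, with 6.71 and 7.14 in PKHD1-/- and PKHD1+/- static. FGB, a fibrinogen chain, was 8.60 in PKHD1-/- flow and 9.87 in PKHD1+/- flow, with 6.96 and 7.94 in PKHD1-/- and PKHD1+/- static. For these 3 genes, which were chosen after their values were seen, the PKHD1+/- flow array held the highest of the 6 levels. AFP, a fetal plasma protein, was 8.37 in PKHD1-/- flow and 8.02 in PKHD1+/- flow, with 7.08 and 8.78 in PKHD1-/- and PKHD1+/- static. F2RL1, a protease receptor of epithelia, was 7.34 in PKHD1-/- flow and 8.35 in PKHD1+/- flow, with 6.74 and 7.14 in PKHD1-/- and PKHD1+/- static.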
